A study of Mus musculus with 13 samples.

Results

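The 9 control libraries of a study of mutant SOD1 mice are described here as one condition, out of 13 libraries in all. They are the 5 libraries titled AAV-miR ctrl and the 4 titled Non-injected SOD1 mutant, and no comparison between these groups was made. Every mouse of the study, controls included, was of the SOD1-G93A genotype, a transgenic model of amyotrophic lateral sclerosis, and was 65 days old. The AAV-miR ctrl mice had been injected into the cerebral ventricles on postnatal day 2 with a control adeno-associated virus, and the other group consisted of littermates that received no injection. The remaining 4 libraries, AAV-miR SOD1, came from mice given a vector that makes an artificial microRNA directed at human SOD1 in astrocytes, and they serve below only to measure the spread of genes in samples that did not choose them. No library of a mouse without the mutation was analysed here, so the levels describe mutant tissue alone.

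Each library is 1 mouse. Per the labels' protocols, a pool of 500 motoneurons was cut by laser from cresyl violet-stained cryosections 14 µm thick, and its RNA was amplified to cDNA with a low-input kit before library preparation. The lumbar cord had been frozen together with its vertebrae. Counts assigned to genes ranged from 13.9 to 37.4 megacounts per library, with a median of 23.1 megacounts, and 21444 to 23103 genes had at least 1 count. Between 42.3% and 53.8% of the counts in a table, gene and summary rows together, were of alignments that were not unique. These were assigned to no gene, so genes with near-identical copies are undercounted. A read with several alignments may have been listed more than once, so this need not be a share of reads. Spearman's rho of log2 CPM between libraries, across genes, ranged from 0.905 to 0.970 over 36 pairs.

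Spinal motoneurons are large cholinergic neurons whose axons leave the cord and drive skeletal muscle. They make acetylcholine with choline acetyltransferase (Chat), take choline back up through Slc5a7, and fill their long axons with neurofilaments and the related filament protein peripherin (Prph). Mnx1 is a homeodomain factor of the motoneuron lineage, and mutant SOD1 causes these neurons to degenerate.

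The 4 defining markers had counts in 9 of 9 libraries. Chat (chr14:32408203-32465989, GRCm38) had a lowest value of 6.19, a median of 6.60 and a highest value of 7.26 log2 CPM, where CPM is counts per megacount scaled by edgeR's TMM. Slc5a7 ran from 7.71 through a median of 8.25 to 9.18 log2 CPM. Prph (chr15:99055174-99058978) ran from 7.81 through 9.34 to 9.94 log2 CPM. Mnx1 had 2.76, 3.91 and 4.38 log2 CPM, and was also the lowest of the 4 markers per length. AAV-miR ctrl replicate 1 held the lowest value of Slc5a7, Prph and Mnx1, and non-injected replicate 3 the highest value of Chat and Slc5a7. Slc18a3, the vesicular acetylcholine transporter, lies inside the Chat locus on the same strand and ran from 7.72 to 9.52 log2 CPM, so reads in the shared stretch could be ambiguous between them. The inhibitory interneuron list had a median of 1.23 log2 CPM over its 4 kept genes, against 3.82 over all 16621 genes kept.

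Few of the 25 leading genes belonged to the motoneuron lists, which are also the shorter ones. The 25 had the highest mean log2 CPM of the 16621 genes kept, a ranking by counts and not per length. Of these, 12 belonged to the lists of muscle, marrow, blood, bone, cartilage or fat genes, 81 genes in all. Another 3 were mitochondrially encoded. The motoneuron lists, 27 genes in all, had 2 among the 25, Nefm and Spp1. Spp1 (osteopontin) is in the alpha and fast motoneuron list and is also a bone matrix protein. The summed share of counts taken by the muscle, marrow, blood, bone, cartilage and fat lists (81 genes) was 8.38% at its lowest, 11.5% at its median and 17.5% at its highest. Of those lists, 5 were written after the values had been seen. The motoneuron lists (27 genes) took 1.09% at the lowest, 1.89% at the median and 2.85% at the highest. The libraries are therefore called control libraries in what follows. The motoneuron median of 1.89% was that of AAV-miR ctrl replicate 1, the library with the lowest share of the 4 markers, 0.056%. The alpha and fast motoneuron list, which includes Spp1, took 1.10% there. In tissue samples of this kind, fewer cells of a type and less RNA per cell cannot be told apart. The part of other tissues in each level below was not tested.

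**Figure D1:**
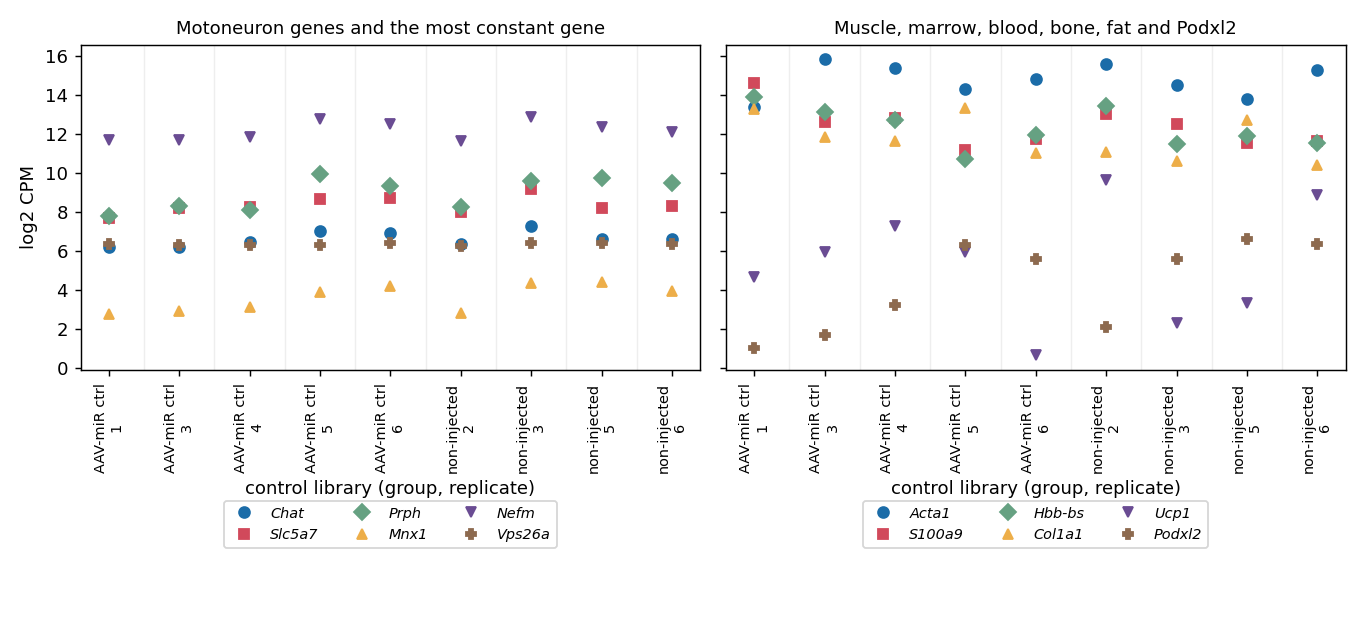
Log2 CPM (vertical axis) of 12 genes in each of the 9 control libraries (horizontal axis), with 1 point per gene and library. Vps26a stays between 6.25 and 6.42 in all 9 libraries, whereas Ucp1 runs from 0.66 to 9.64 and Podxl2 from 1.04 to 6.60.

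Several libraries stood apart. Xist, the RNA of the inactive X chromosome, and Ddx3y, a Y-linked helicase, were mostly high in different libraries. Both were present in AAV-miR ctrl replicate 4, with 633 counts of Xist and 254 of Ddx3y, in non-injected replicate 5, with 221 and 1302, and in AAV-miR ctrl replicate 6, with 147 and 1707. In the other 6 libraries one of them had at most 18 counts. The sex of the mice is not given in the sources used here, and how both came to be present was not tested. AAV-miR ctrl replicate 1 held the highest share of neutrophil granule genes and the lowest share of skeletal muscle genes. The table of replicate 3 in either control group had a column header naming another group than its label. Both are control libraries by their labels, which were followed.

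Counts were concentrated in few genes. The 100 highest genes held 23.5% of a library's counts at the lowest, 28.6% at the median and 36.1% at the highest, and 542 genes held 50% of the mean counts. Acta1 (skeletal muscle alpha-actin, chr8:123891769-123894751) led with 13.37, 14.80 and 15.81 log2 CPM, and made up 1.14% to 5.33% of a library. AAV-miR ctrl replicate 3 had the highest value and AAV-miR ctrl replicate 1 the lowest. Aldoa, a glycolytic enzyme abundant in muscle, followed with 11.92, 13.53 and 14.10 log2 CPM. Atp2a1, the calcium pump of fast muscle, was next, and Tnnt3, Ckm, Tnni2, Mylpf and Tpm2, further genes of the contractile apparatus or its energy supply, were also among the 25. All 8 of these had their lowest value in AAV-miR ctrl replicate 1.

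Levels of different genes were compared per length, in TPM (each gene's count per exon length, as a share of the library's sum of these), computed from the summed exon length of each gene. Acta1 averaged 44434 TPM ± 19041 (SD, n = 9). S100a9 and S100a8, calcium-binding proteins of neutrophils, averaged 29228 ± 27246 and 19935 ± 16400 TPM (SD, n = 9). Both were highest in AAV-miR ctrl replicate 1, which had 99572 TPM of S100a9 and so raised its mean and SD. The lowest library still had 11417 TPM. The mitochondrial genes mt-Nd1 (18142 ± 3971 TPM) and mt-Cytb (15174 ± 2935 TPM), which encode respiratory chain subunits, were steadier. Of 37 mitochondrially encoded genes 23 were kept, and mt-Co2, mt-Co3 and mt-Atp6 were among those not kept. The part of reads aligning to several places in this was not tested. Hbb-bs, an adult beta-globin, averaged 17442 ± 11307 TPM. Tnnt3, Mylpf, Aldoa and Spp1 completed the 10 highest, the last at 7672 ± 3454 TPM. The order among them is loose. In 2 of 9 pairs of neighbours the mean log2 difference was larger than its SD over libraries. These were S100a9 over S100a8, by 0.49 ± 0.09, and mt-Cytb over Tnnt3, by 0.63 ± 0.60, each in 9 of 9 libraries.

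Among neuronal genes, neurofilaments were high. Nefl, the light subunit, averaged 2138 ± 1060 TPM (SD, n = 9). Nefm, the medium subunit, had 11.62, 12.07 and 12.87 log2 CPM and averaged 1911 ± 820 TPM. The neurofilament and peripherin list took 0.616% to 1.58% of counts, with a median of 0.971%, and its median member stood at 1096 TPM against 6.99 TPM over all genes kept. Uchl1, a ubiquitin hydrolase abundant in neurons, averaged 1803 TPM, and Tubb3, neuronal beta-tubulin, 1482 TPM. Snap25, a SNARE protein of synaptic vesicle release, averaged 409 TPM. Voltage-gated sodium and potassium channels had a median of 6.86 TPM over 19 genes, close to that of all genes kept, and calcium channels 1.70 TPM over 14 genes. Scn4b, an auxiliary sodium channel subunit, averaged 116 ± 29.3 TPM (SD, n = 9). Glutamate receptors had a median of 3.0 TPM over 12 genes, and glycine and GABA-A receptors 13.2 TPM over 12 genes, led by Glrb, the glycine receptor beta subunit, at 100.01 TPM. Sod1 had 7.77, 8.10 and 8.86 log2 CPM. How transcripts of the human transgene were treated in the counting is not given in the sources used here.

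Genes of energy metabolism were abundant. The nuclear respiratory chain list took 3.74% to 6.07% of counts, and 70 of its 76 kept genes (92.1%) lay in the top 10% by TPM of all genes kept. Atp5b, the beta subunit of ATP synthase, had 10.98, 11.73 and 12.17 log2 CPM. Proteasome genes had 29 of 38 in that top set and a median of 147 TPM, and V-type ATPase subunits had 14 of 20 and 162 TPM. Cytosolic ribosomal protein genes had 22 of 78 there and a median of 28.3 TPM. Those genes have many near-identical pseudogenes, and reads that align to several places were assigned to no gene, so their level is a lower limit. Antioxidant enzymes had 13 of 17 in the top set and a median of 155 TPM, led by Gpx1, a glutathione peroxidase, at 3453 ± 1191 TPM (SD, n = 9).

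**Figure D2:**
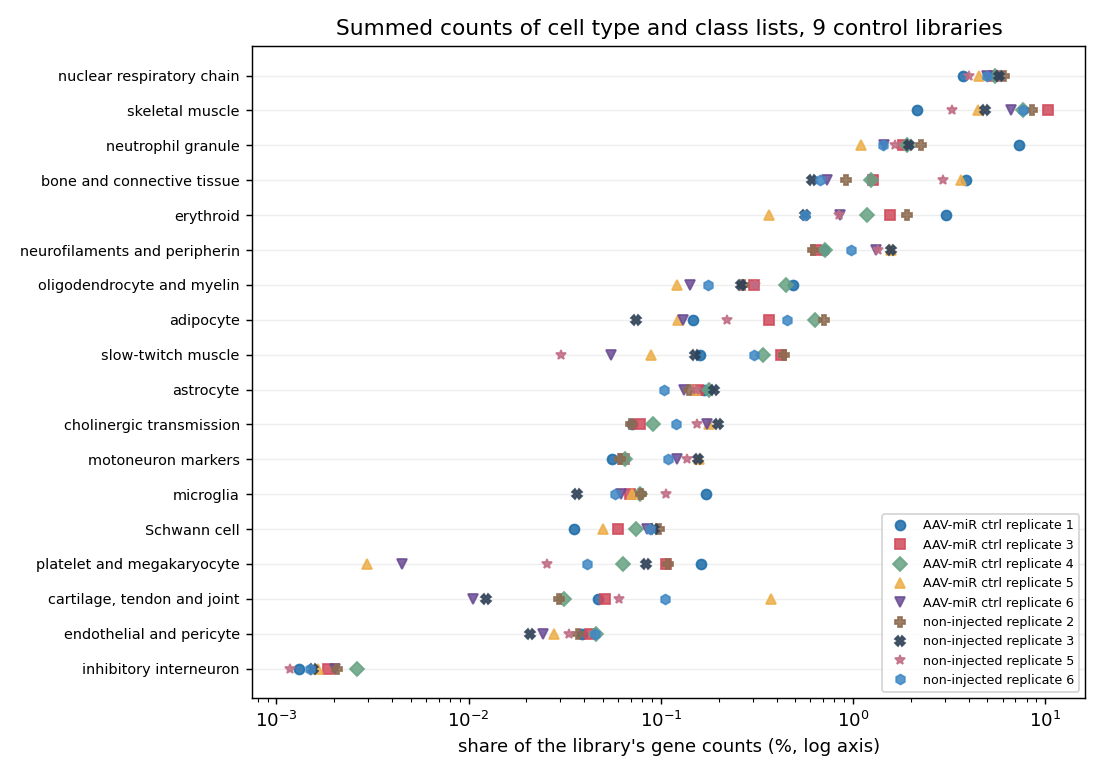
Share of each control library's gene counts (horizontal log axis, percent) summed over the genes of 18 lists (rows), with 1 symbol per library. Skeletal muscle spans 2.15% to 10.3% and the motoneuron markers 0.056% to 0.158%.

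Genes of other tissues differed in which libraries they were high in. Skeletal muscle genes took 2.15%, 6.62% and 10.3% of counts at the lowest, median and highest library. AAV-miR ctrl replicate 1 was lowest, and without it the range was 3.25% to 10.3%. Neutrophil granule genes took 1.10%, 1.81% and 7.32%, and without AAV-miR ctrl replicate 1 the highest was 2.27%. Bone and connective tissue genes took 0.612%, 1.25% and 3.87%, with AAV-miR ctrl replicates 1 and 5 and non-injected replicate 5 above 2.9% and the other 6 libraries at or below 1.28%. Erythroid genes took 0.364%, 0.858% and 3.03%, and without AAV-miR ctrl replicate 1 the highest was 1.91%. These sums rest on so many counts that the widest 95% Wilson interval of any list and library was 0.0140 percentage points to each side, for counting error only.

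Glial lists were smaller. Astrocyte genes took 0.104% to 0.190% of counts, oligodendrocyte and myelin genes 0.121% to 0.486%, microglial genes 0.037% to 0.172% (0.106% at most without AAV-miR ctrl replicate 1) and Schwann cell genes 0.035% to 0.098%. Gfap, the astrocyte filament protein, ran from 4.34 through 6.57 to 8.07 log2 CPM, lowest in AAV-miR ctrl replicate 5 and highest in AAV-miR ctrl replicate 4. S100b, at 956 ± 279 TPM (SD, n = 9), was the highest gene of the astrocyte list per length. Members of a list did not share one order of libraries. Aldoc, of the astrocyte list, was highest in AAV-miR ctrl replicate 5 (8.75 log2 CPM), where Gfap was lowest. In the microglial list, Tyrobp was highest in AAV-miR ctrl replicate 1 and Tmem119 in AAV-miR ctrl replicate 5. How much of these sums is of glial origin was not tested.

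Spread was measured as the SD of log2 CPM over the 9 libraries, among the 7835 genes with a mean of at least 4 log2 CPM, called well expressed. Their median SD was 0.37. Counting error alone gives a median SD of 0.046, and no gene had an SD at or below its counting error. The most constant 10% (784 genes, the constant set) ended at Dhx29, with an SD of 0.198, and the most variable 10% (784 genes, the variable set) began at Prkaa2, with 0.732. The genes just outside were Dolpp1 and Tubb3, whose SDs were 0.198 and 0.731. Treating the libraries as one condition gave a common biological coefficient of variation of 0.462, and fitting the groups separately gave 0.463.

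**Figure D3:**
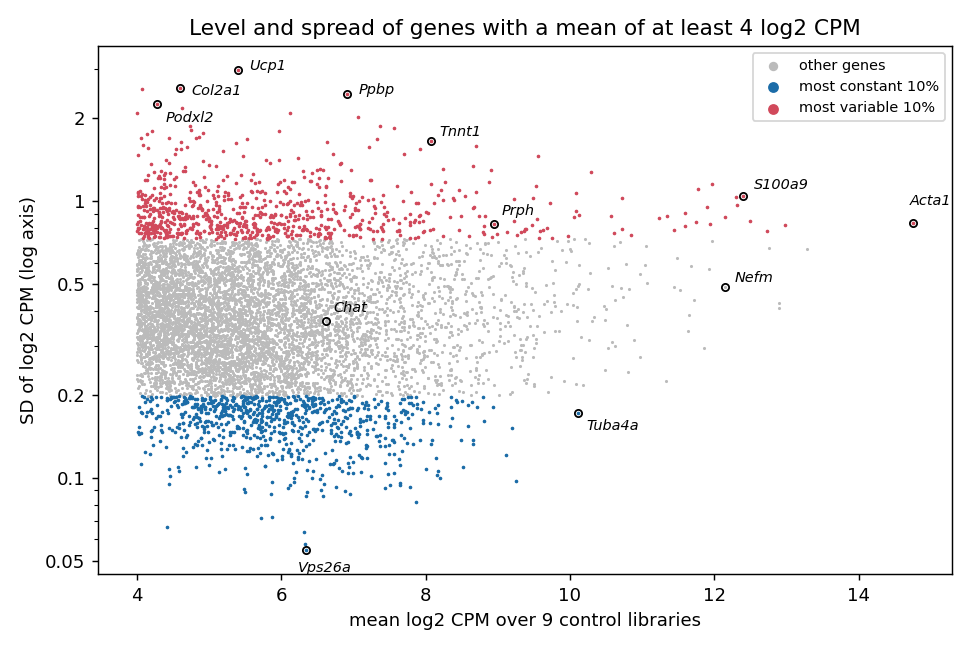
SD of log2 CPM (vertical log axis) against mean log2 CPM (horizontal axis) of 7835 genes over the 9 control libraries, 1 point per gene, with the constant set in blue and the most variable in red. Acta1 and S100a9 combine high levels with SDs of 0.83 and 1.04, and Vps26a has the lowest SD, 0.055.

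The 20 lowest SDs ran from 0.055 to 0.093. Vps26a (chr10:62455235-62486805), a cargo-recognition subunit of the retromer, which returns proteins from endosomes, had 6.25, 6.36 and 6.42 log2 CPM and the lowest SD of all, 0.055, where counting error gives 0.033. Its retromer partner Vps35 had 7.57, 7.79 and 7.91 log2 CPM and an SD of 0.092. Vps41, a subunit of the HOPS tethering complex, and Rab1a, a small GTPase of transport from the endoplasmic reticulum, had SDs of 0.089 and 0.082. The splicing proteins Phf5a, Snw1, Bud31 and Bcas2 had SDs of 0.064, 0.071, 0.092 and 0.093. Parl, a rhomboid protease of mitochondria, had 0.058, and Cct4, a chaperonin subunit, 0.092. None of the 25 highest genes was in the constant set, and 13 of them were in the most variable.

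By class, proteasome genes had the lowest median SD of any list in the 9 libraries, 0.219, with 13 of 37 in the constant set, which holds 10% of all well expressed genes. Translation factors had 13 of 49 and a median SD of 0.245, and spliceosome genes 14 of 62 and 0.263. In the libraries numbered 1 to 4, the constant set of those libraries held 6 proteasome genes, 14 translation factors and 15 spliceosome genes. The spliceosome count was 7 in the libraries numbered 5 or 6, 8 with library totals in place of TMM and 5 by median absolute deviation. Unfolded protein response genes had 5 of 17 in the constant set. Members of these lists in the variable set were the elongation factor Eef1a1 (SD 0.79), the splicing factors Srsf2 (1.12) and Srsf9 (0.86), and Xbp1 (0.91) and Creld2 (0.81) of the unfolded protein response. The proteasome list had 0 in the variable set, and Psmb8, an immunoproteasome subunit, had its highest SD, 0.67. Of 16 well expressed common reference genes, 0 were in the constant set and 1, Eef1a1, was in the variable set. Ywhaz was the steadiest of them, with 7.28, 7.66 and 8.0 log2 CPM and an SD of 0.21, and Gapdh ran from 6.31 to 8.16 log2 CPM. Tardbp, which encodes the RNA-binding protein TDP-43, had 5.58, 5.96 and 6.15 log2 CPM and was in the constant set.

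Of 18 well expressed genes of the motoneuron lists, 0 were in the constant set and 4 in the variable set, each of which holds 10% of all well expressed genes. The 4 were Prph, Ache, Calca and Mmp9. The median SD was 0.434 for the markers, 0.569 for cholinergic transmission, 0.60 for alpha and fast motoneuron genes and 0.489 for neurofilaments and peripherin, against 0.37 over all well expressed genes. The 2 well expressed genes of the gamma motoneuron list had a median of 0.467, and the 1 transcription factor had 0.286. Prph had an SD of 0.83 and Chat 0.37. Mmp9, a metalloproteinase of fast motoneurons that marrow cells also make, was highest in AAV-miR ctrl replicate 1 (10.59 log2 CPM), where neutrophil genes were highest too. Next came non-injected replicate 5 (10.37) and AAV-miR ctrl replicate 5 (9.50), and these 3 libraries also had the highest shares of bone genes.

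Most well expressed genes of the other tissues' lists lay at the variable end, although they made up a small part of it. Of 70 well expressed genes in the muscle, marrow, blood, bone, cartilage and fat lists, 63 were among the 784 genes of the variable set, which holds 10% of all well expressed genes, and 0 in the constant set. Of those lists, 5 were written after the values had been seen, so their counts describe and support nothing. They supplied 8 slow-twitch muscle, 7 adipocyte, 4 platelet, 8 cartilage and 5 plasma cell genes of the 63. Among the lists written earlier, bone and connective tissue had 8 of 8, erythroid 7 of 7 and B lineage 4 of 5. Skeletal muscle had 7 of 8, but 2 without AAV-miR ctrl replicate 1. Neutrophil granule had 5 of 9, but 1 without that library. When the SD was taken relative to its trend on level, the counts were 6 for bone and connective tissue, 4 for erythroid, 1 for skeletal muscle and 0 for neutrophil granule. In the libraries numbered 5 or 6 they were 8, 4, 4 and 2. Immediate early genes, whose transcripts appear within minutes of stimulation, had 4 of 6, with Dusp1 at 2.96, 4.93 and 6.53 log2 CPM. That count was 2 in the libraries numbered 1 to 4, 1 in those numbered 5 or 6, and 7 or 0 with a level of at least 3 or 6 log2 CPM.

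**Figure D4:**
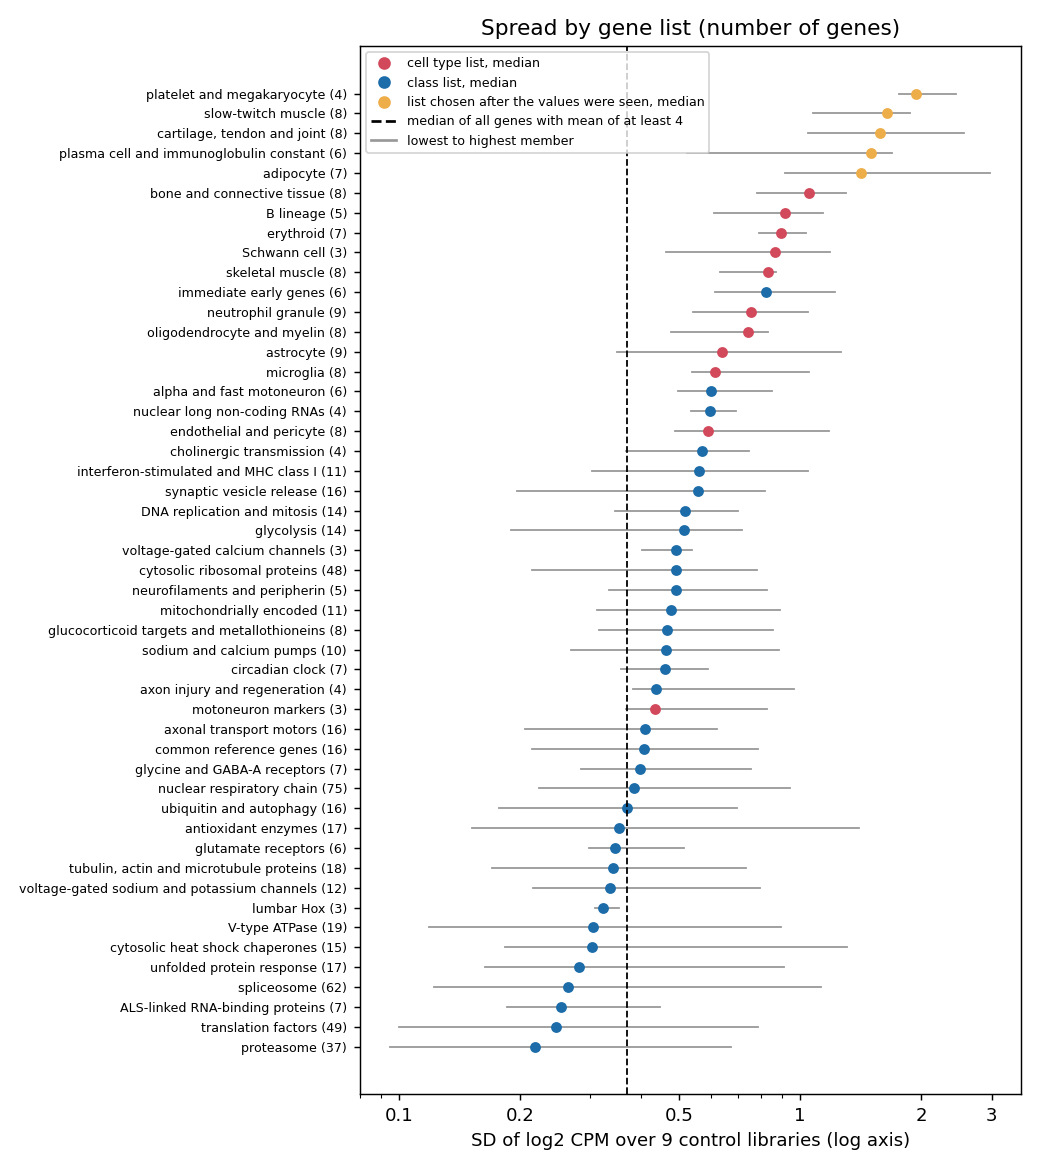
SD of log2 CPM (horizontal log axis) of the well expressed genes of each list with at least 3 such genes (rows, number of genes in brackets). Points mark the median, grey lines the lowest to highest member and the dashed line the median of all 7835 genes, 0.37; proteasome is lowest at 0.219.

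The single most variable gene was Ucp1 (chr8:83290352-83298452), the uncoupling protein of brown fat, at 0.66, 5.95 and 9.64 log2 CPM and an SD of 2.98. It was above 8.8 in non-injected replicates 2 and 6 and lowest in AAV-miR ctrl replicate 6. Its partner in brown fat, the lipid droplet protein Cidea, ran from 3.20 to 8.73 log2 CPM and was highest in the same pair of libraries. Col2a1, the collagen of cartilage, had 1.11, 4.32 and 10.25 log2 CPM, with the highest value in AAV-miR ctrl replicate 5. Prg4 (lubricin) and Chad, both of joints and cartilage, were also highest there. Eln, elastin, had 9.67 log2 CPM in non-injected replicate 5 and at most 4.99 elsewhere. The platelet chemokines Ppbp and Pf4 were at 2.70 and 3.84 log2 CPM in AAV-miR ctrl replicate 5, and at 9.48 and 8.43 in AAV-miR ctrl replicate 1. Slow muscle troponins Tnnc1 and Tnni1 were lowest in non-injected replicate 5, at 4.20 and 4.46 log2 CPM, and reached 9.23 and 9.37.

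Other variable genes followed a different order of libraries. Podxl2, a sialomucin, had 1.04, 5.61 and 6.60 log2 CPM. It was at or below 3.22 in non-injected replicate 2 and AAV-miR ctrl replicates 1, 3 and 4, and at or above 5.61 in the other 5 libraries. Rab5if, Mrps34, a mitochondrial ribosomal protein, and the heat shock gene Hspb1 were likewise lowest in non-injected replicate 2 and AAV-miR ctrl replicates 1 and 3. Rab5if ran from 2.05 through 4.66 to 6.20 log2 CPM, Mrps34 from 1.35 through 5.04 to 5.34, and Hspb1 from 4.71 through 7.27 to 7.79.

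A principal component analysis of the 7835 genes put 39.2%, 23.8% and 15.3% of the variance on the first 3 components. Podxl2, Rab5if and Mrps34 were among the genes at the positive end of the first, and Ppbp, Pf4 and Ucp1 at its negative end. Non-injected replicate 2 and AAV-miR ctrl replicates 1, 3 and 4 scored below 0 on it, and the 5 other libraries above 0. All 4 libraries numbered 5 or 6 were above 0, a number the labels do not tie to a batch. The second component had slow muscle genes at one end and bone genes such as Col1a1, Dmp1 and Bglap at the other. On it, non-injected replicate 5 and AAV-miR ctrl replicate 1 lay farthest toward bone.

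Base composition moved with the first component. The 100 genes with the highest first-component loadings had a median GC content of 71.8% over the first 200 transcript bases, the 100 lowest 56.0% and all well expressed genes 64.0%. In the bin of genes richest in GC at the start (72.5% to 88.5%, 1509 genes), the median deviation from the gene mean was lowest in non-injected replicate 2, at -0.28 log2 CPM, and highest in non-injected replicate 5, at 0.26. In the bin poorest in GC it stayed between -0.07 and 0.10. The constant and the variable set had the same median GC content over the first 200 transcript bases, 62.5%. Of the genes in the poorest bin 14.3% were in the variable set, against 12.2% in the richest bin and 6.74% in the middle bin. The richest bin had the highest median SD, 0.430, against 0.373 in the poorest and 0.344 in the middle bin. It also had the smallest share of genes in the constant set, 5.83%, against 10.7% and 12.6%. Removing the median deviation of 20 GC bins, an alternative added after the data were seen, kept 675 of the 784 most variable genes and 566 of the 784 most constant. The part of base composition in any one gene's spread was not tested.

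**Figure D5:**
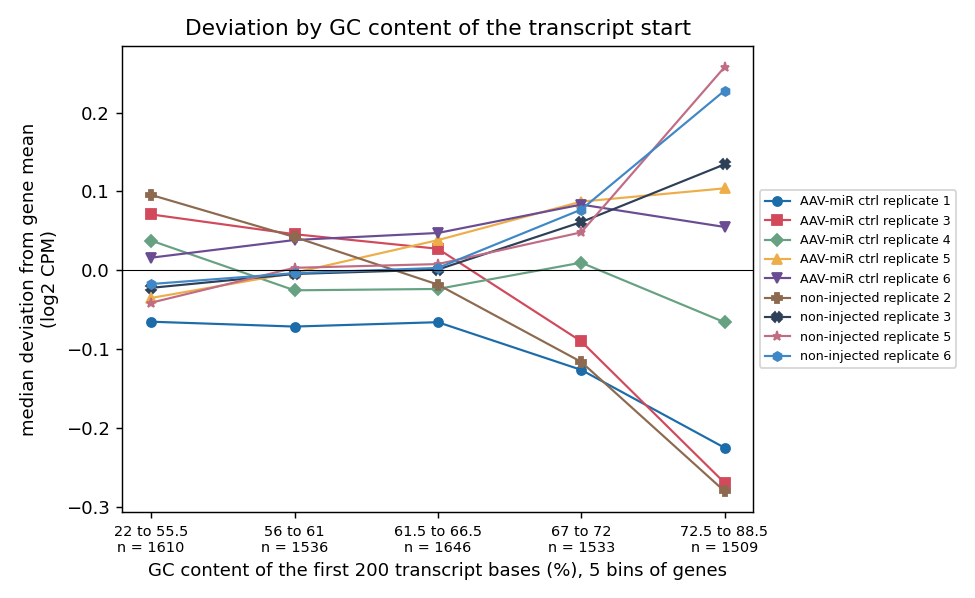
Median deviation of genes from their own mean (vertical axis, log2 CPM) in 5 bins of well expressed genes by GC content of the first 200 transcript bases (horizontal axis, percent), 1 line per control library. The lines spread from between -0.07 and 0.10 at the lowest GC to between -0.28 and 0.26 at the highest.

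The sequences before the start of 5 genes show how far they differ in CG dinucleotides, given in capitals below. They are the 250 bases upstream of the annotated start, 5′ to 3′ on the gene's strand, from RefSeq (GRCm38.p6). Vps26a (chr10:62486806-62487055, minus strand) is the most constant gene, Rab5if (chr2:156862872-156863121, plus strand) a variable gene of the first component, Prph (chr15:99054924-99055173, plus strand) a motoneuron marker, Acta1 (chr8:123894776-123895025, minus strand) the highest gene and Ucp1 (chr8:83290098-83290347, plus strand) the most variable.
Vps26a: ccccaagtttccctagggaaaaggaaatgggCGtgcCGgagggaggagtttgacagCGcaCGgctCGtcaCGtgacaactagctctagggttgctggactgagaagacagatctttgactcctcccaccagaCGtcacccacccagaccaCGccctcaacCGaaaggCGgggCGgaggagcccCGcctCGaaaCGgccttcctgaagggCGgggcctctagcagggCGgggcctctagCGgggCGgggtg
Rab5if: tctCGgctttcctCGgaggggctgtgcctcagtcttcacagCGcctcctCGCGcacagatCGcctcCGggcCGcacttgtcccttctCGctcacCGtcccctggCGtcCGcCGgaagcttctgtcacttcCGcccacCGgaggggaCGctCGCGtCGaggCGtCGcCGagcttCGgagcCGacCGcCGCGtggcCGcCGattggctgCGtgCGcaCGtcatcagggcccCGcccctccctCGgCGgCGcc
Prph: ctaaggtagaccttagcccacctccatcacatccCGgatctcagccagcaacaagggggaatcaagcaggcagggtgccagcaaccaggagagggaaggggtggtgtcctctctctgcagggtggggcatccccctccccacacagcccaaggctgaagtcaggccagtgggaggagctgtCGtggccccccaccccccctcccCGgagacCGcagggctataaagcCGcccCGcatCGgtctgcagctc
Acta1: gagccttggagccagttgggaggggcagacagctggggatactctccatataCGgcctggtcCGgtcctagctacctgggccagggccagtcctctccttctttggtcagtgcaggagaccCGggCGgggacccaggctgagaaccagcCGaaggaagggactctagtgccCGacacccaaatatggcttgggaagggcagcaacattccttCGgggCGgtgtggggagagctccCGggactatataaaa
Ucp1: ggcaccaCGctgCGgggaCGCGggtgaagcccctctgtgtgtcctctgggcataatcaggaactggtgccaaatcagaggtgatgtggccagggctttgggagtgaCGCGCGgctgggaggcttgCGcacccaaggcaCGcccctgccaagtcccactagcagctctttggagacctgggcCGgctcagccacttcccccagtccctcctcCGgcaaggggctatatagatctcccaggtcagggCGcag

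Rab5if held 36 CG dinucleotides, and 2.58% of the 32851 windows in the table hold as many. Vps26a held 18 (21.7% of windows hold as many), Ucp1 12 (33.5%), Acta1 9 (40.3%) and Prph 7 (46.3%), against a median of 6. Over the first 200 transcript bases, Rab5if had 78.5% GC, and so did the constant Vps26a. Other genes named above with Rab5if had less, with 62.0% in Podxl2 and 65.5% in Mrps34 and Hspb1. The letters TATAAA, searched on both strands, occurred in Prph and Acta1 and in 12.4% of all windows. A check over whole sets of genes was void, since an entry was matched by symbol for 73.1% of the variable set.

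The spread was then measured in the 4 AAV-miR SOD1 libraries, which had no part in choosing either set. There the median SD was 0.197 for the most constant genes, 0.783 for the most variable and 0.327 for all well expressed genes. Of the 784 most constant genes, 181 (23.1%) were in the constant set of those libraries and 2 in the most variable. Of the 784 most variable genes, 401 (51.1%) were in the variable set there and 6 in the most constant. By construction, 10% of well expressed genes lie in each. Proteasome genes had a median SD of 0.197 there, above cytosolic ribosomal proteins (0.095), V-type ATPase (0.167), translation factors (0.178) and interferon-stimulated and MHC class I genes (0.187). Skeletal muscle genes had a median SD of 1.73 there, against 0.831 in the control libraries. The median fell from 1.05 to 0.564 for bone and connective tissue genes and from 0.895 to 0.551 for erythroid genes. Vps26a had an SD of 0.198 in those libraries and Ucp1 2.26. Tmem234 and Vps41 stayed low in both sets, with 0.088 and 0.089 in the control libraries and 0.072 and 0.053 in the others.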

How the data were processed

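RNA-seq counts of 9 control libraries were used, grouped by their titles. The deposited tables hold unnormalised counts, made by the authors with cutadapt 1.8, STAR 2.5.2b and HTSeq 0.6.1 on GRCm38, per the submitters' processing notes; annotation release and strand setting are not given in the sources used here. The 5 summary rows of each table were kept out of totals. Genes were kept with edgeR's filterByExpr (edgeR 4.0.16, R 4.3.3; minimum count 10, minimum total 15), scaled by TMM and expressed as log2 CPM with a prior count of 2. Symbols, positions and exon lengths came from GENCODE M21 (48349 of 48709 identifiers found). TPM divides counts by summed exon length. The spread calculation was tested on simulated data. No tests between groups were made. Named genes are the 25 highest in log2 CPM, the 10 highest per length, the 20 lowest and 30 highest SDs, the highest, steadiest and most variable gene of each list, all motoneuron markers and reference genes, and Sod1. Genes of the first components, set edges and held-out examples were named after their values were seen. The members and lists were chosen with earlier results of these data known, and 5 lists (slow-twitch muscle, adipocyte, platelet, cartilage and plasma cell) after the values were seen. Alternatives were other scalings, priors, level thresholds, spread measures, library sets and leaving out each library.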

Additional observations from a re-analysis of the deposited data

Results flagged for a closer look

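Each of 296 sets of 9 values (library measures, named genes and list means) was examined for a library whose gap to the nearest other exceeded Dixon's 95% critical value as a share of the range. There were 13, and chance gives about 1 in 20, or 14.8. AAV-miR ctrl replicate 1 accounted for 8 of them. It was high for Lcn2 (10.57 log2 CPM, nearest other 9.43), Tyrobp (9.08), Hnrnpk (7.84) and the mean of the neutrophil granule list (11.93, nearest other 10.55). It was low for Slc25a4 (10.62), Pmp22 (7.85), Atp5d (9.39) and the mean of the glycolysis list (7.61).

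Non-injected replicate 3 was high for Grin3a (4.86 log2 CPM), a glutamate receptor subunit, and for the means of the glutamate receptor list (4.46) and the glycine and GABA-A receptor list (4.79). Eln was high in non-injected replicate 5 (9.67, nearest other 4.99). Acan, a cartilage proteoglycan, was high in AAV-miR ctrl replicate 5 (5.58, nearest other 4.12), the library highest in Col2a1. The source of these values was not tested.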

How the results depend on the processing

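The 25 highest genes shared 22 to 25 members with the same ranking under each of 16 alternatives. The share of counts in the 100 highest genes stayed between 27.4% and 32.3%, and the genes holding 50% of counts between 466 and 616. Membership of the constant and variable sets depended more on the libraries and on the measure. Of the 784 most variable genes, 483 recurred in the libraries numbered 1 to 4, 428 in those numbered 5 or 6, 274 with a level of at least 6 log2 CPM, 101 with no level filter and 460 by median absolute deviation. Of the 784 most constant, 417 recurred in the libraries numbered 1 to 4, 282 in those numbered 5 or 6, 274 at the higher level and 375 by median absolute deviation. A level filter changes which genes can enter. It also changes the size of the sets, each a fixed share of the genes that pass it. Cidea, with a mean of 5.97 log2 CPM, ranked 2791 by level. The sets at 6 log2 CPM were thus drawn from fewer than 2791 genes, not 7835, and held far fewer than 784. The value 274 is therefore not a share of 784 and does not show a change in membership. Libraries numbered 5 or 6 number 4, with a median SD of 0.239. Leaving out each library in turn kept 638 to 740 of the most variable and 551 to 699 of the most constant genes. With no level filter, the sets were drawn from all 16621 genes kept, and the same share of these is 1663 genes. The members in the variable set fell to 1 for bone and connective tissue, because low genes then fill it. They fell to 0 for the erythroid, neutrophil granule and skeletal muscle lists. The members in the constant set were 24 for the proteasome and 25 each for translation factors and the spliceosome. That set is larger than 784 genes, so these higher counts do not show greater constancy.

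No paired analysis was possible because no groups were compared and no test was made. Depth limits genes under the level threshold, where counting error is larger.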
